A study of Mus musculus with 24 samples.

Results

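The ATP-binding cassette (ABC) transporters and the organic anion transporting polypeptides of the Slco family move bile acids, sterols, phospholipids, hormones and drugs across membranes. The genes described here were all those whose symbol in the deposited gene tables is Abca to Abcg followed by a number and at most one letter, or starts with Slco and a number. This gave 65 genes, 50 ABC and 15 Slco, of the 43629 genes listed. They were measured by strand-specific mRNA sequencing of whole liver from wild-type mice of the inbred C57BL/6 strain. Old mice (about 19 months) and young mice (about 4 months) were sampled at ZT2, ZT6, ZT10, ZT14, ZT18 and ZT22, where zeitgeber time (ZT) counts hours from lights on. Each of the 12 combinations of age and time had 2 libraries, so there were 24 libraries, 12 old and 12 young. No group carried a further allele or treatment. The labels give neither the sex of the mice nor whether the 2 libraries of a group came from different animals, so p-values measure only the spread between these samples.

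In hepatocytes, Slco proteins on the sinusoidal membrane take organic anions from portal blood, and ABC proteins on the canalicular membrane use ATP to pump bile salts, phosphatidylcholine, sterols and conjugates into bile. ABC proteins of the basolateral membrane return conjugates to the blood, and smaller transporters of the B and D subfamilies, which act as pairs, work in mitochondria, lysosomes and peroxisomes. ABCE1 and the ABCF proteins have no membrane domain and act on ribosomes.

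The libraries held the equivalent of 8.70 M to 13.7 M reads of 50 bases (M for megareads; old 8.70 to 12.3, young 9.68 to 13.7). Values are transcripts per 1000000 (TPM) after scaling between libraries, a measure per transcript length that allows levels of different genes to be compared. Replicate 2 of young ZT18 held RNA of pancreatic acinar cells, with a summed level of 5 acinar markers of 2603 TPM against at most 10.3 in any other library, and replicate 1 of old ZT14 had the lowest share of mitochondrially encoded RNA, 3.42% against a median of 13.0% over all libraries. Collection ran over 2 days, and the labels do not tie a library or a replicate number to a day. The libraries also differed by transcript length. Over 3060 other tested genes whose longest annotated transcript reached the members' median of 4381 bases, the median deviation from each gene's own mean was below 0 in 11 of the 12 libraries numbered replicate 1, and above 0 in all 12 numbered replicate 2. Replicate 1 of young ZT10 was the exception, at 0.23 on the log2 scale, the highest of all. The 5 hepatocyte markers (Alb, Apoa1, Ttr, Serpina1c and Tat) summed to between 77740 and 107000 TPM in old and 72990 and 104600 TPM in young libraries, so the defining transcripts of the labelled tissue were abundant.

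The transporter genes were expressed at very different levels. Together they held 0.193% to 0.288% of all TPM in old libraries (median 0.235%) and 0.148% to 0.328% in young libraries (median 0.236%). The 5 most abundant, Slco1b2, Slco1a1, Abcd3, Abcb11 and Abcc2, held a median of 67.2% of the members' TPM in old and 67.1% in young. Of the 65 genes, 37 had a mean of at least 1 TPM and were tested. Another 9 were above 0 in 23 or 24 libraries with means of 0.284 to 0.919 TPM: Abca5, Abcc4, Abca9, Abcb1b, Abcc10, Abcc5, Abcc1, Abca7 and Abcb9. Abcc12, Slco4a1, Abca14 and Slco5a1 were above 0 in at most 8 libraries and never above 0.438 TPM. The remaining 15 were listed at 0 in all 24 libraries, among them Abcc8 (the sulfonylurea receptor of pancreatic beta cells), Abca4 (the retinal transporter of photoreceptors) and Slco1c1 (a thyroxine transporter of brain capillaries).

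**Figure D1:**
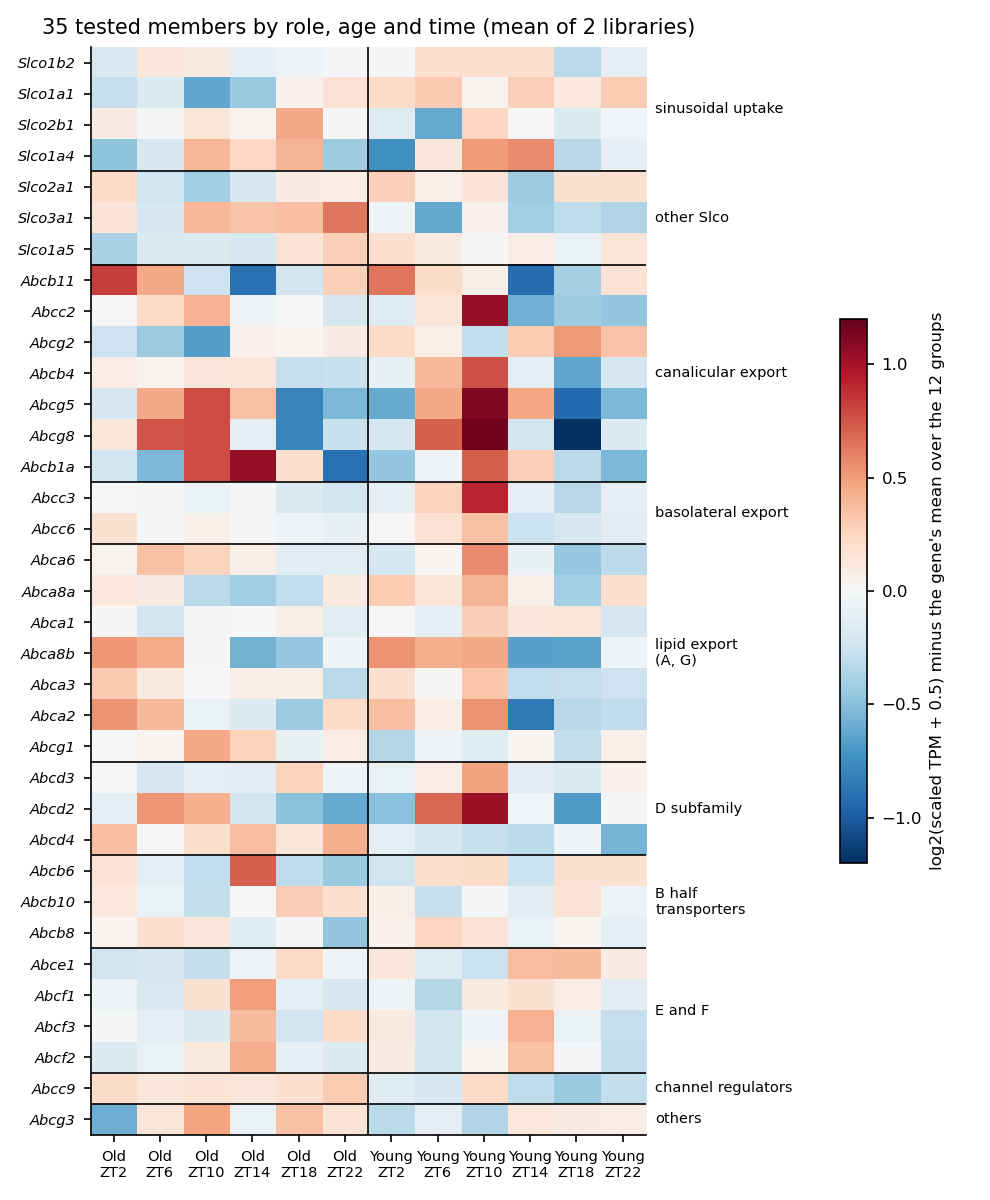
Level of 35 of the 37 tested transporters (rows, grouped by role) in each age and time (columns, old left of young), as log2(scaled TPM + 0.5) minus the gene's mean over the 12 groups, each cell the mean of 2 libraries. Wide swings are seen in the canalicular exporters, with Abcg5 and Abcg8 at their highest at ZT10 and Abcb11 at ZT2 in both ages.

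More of these genes passed the tests of daily variation than the test of age. By limma, 13 of the 37 tested genes (35.1%) passed the test for a 24 h rhythm on the mean of both ages at an adjusted p under 0.05, against 23.9% of all 12261 genes tested. The test for any variation over the 6 times was passed by 10 of the 37 (27.0%), against 15.3% of all genes, and all 10 were among the 13. Abca6, Abcc2 and Slco1a4 passed the rhythm test but not this one. For the age difference over the day, old minus young, 1 of the 37 passed, lower in old, against 1.64% of all genes (0.498% lower in old and 1.14% higher). At an unadjusted p under 0.05 the numbers were 7 of 37 for age (18.9%, against 11.6% of all genes) and 20 of 37 for rhythm (54.1%, against 35.4%). The median age difference was 0.02 in the members and -0.01 in all genes on the log2 scale, with 21 members higher in old by sign and 16 lower. This split depended on the scaling, with 29 higher and 8 lower in the deposited TPM without scaling, where the median of all genes was itself shifted by 0.09. No test compared the members' shares with those of other genes. Without the young ZT18 and old ZT14 libraries named above, 13 members still passed the rhythm test and 1 the age test, and 7 passed the test over the 6 times.

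**Figure D2:**
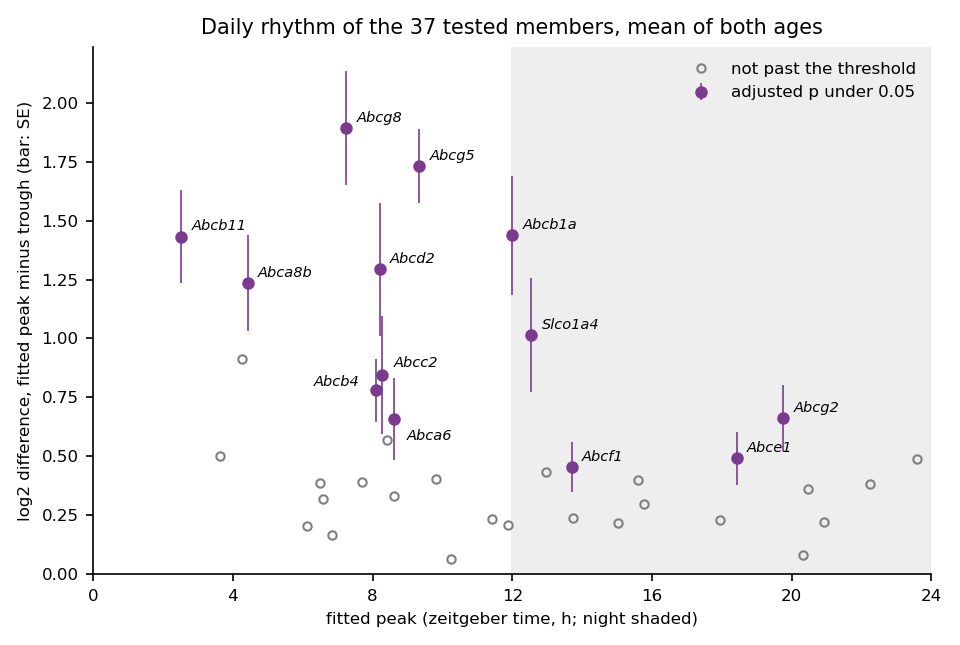
Fitted peak time (horizontal axis, hours) and log2 difference between fitted peak and trough (vertical axis) of the 37 tested transporters on the mean of both ages. Filled points with bars (SE) passed the 24 h rhythm test, and 9 of these 13 (69.2%) peak between ZT0 and ZT12, against 49.6% of the 2935 rhythmic genes of the whole table. Abcb1a, counted among the 9, lies at ZT12.0 and Slco1a4, not counted, at ZT12.5, so the share depends on this cut.

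Among the sinusoidal uptake transporters, Slco1a1, which takes up steroid and thyroid hormone conjugates and bile acids, was the single member that passed the test of age. In old libraries it stood at 313 and 215 TPM at ZT2, 283 and 279 at ZT6, 245 and 169 at ZT10, 259 and 205 at ZT14, 331 and 323 at ZT18 and 428 and 294 at ZT22, all in scaled TPM. Young libraries had 362 and 378 TPM at ZT2, 395 and 386 at ZT6, 293 and 352 at ZT10, 397 and 369 at ZT14, 324 and 363 at ZT18 and 428 and 352 at ZT22. Both old libraries lay below both young libraries at ZT2, ZT6, ZT10 and ZT14, whereas the ages overlapped at ZT18 and ZT22. Slco1a1 (ENSMUSG00000041698, chr6:141907282-141946962, minus strand, GRCm38) averaged 279 ± 68.4 TPM in old and 367 ± 35.2 in young (SD, n = 12 each), with a log2 difference of -0.43 (95% interval -0.62 to -0.24, limma adjusted p = 0.0218). Its difference at single times ranged from -0.73 at ZT14 to -0.07 at ZT18 (SE 0.223 at each), and the variation of the difference over times was not past the threshold (unadjusted p = 0.248). The call was lost without replicate 2 of young ZT10 (log2 difference -0.41). It was also lost without ZT2, ZT6, ZT10 or ZT14 (limma adjusted p = 0.0668 to 0.127). The call was kept without ZT18 or ZT22, where as many samples were left out.

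The start region of Slco1a1 is shown because it is the member whose level differed with age. It spans chr6:141946913-141947212 on the minus strand (RefSeq, GRCm38.p6), from 250 bases before to 50 bases after the annotated start, and capitals mark the hexamer AGGTCA, the half-site that nuclear receptors recognise, on either strand, 134 and 24 bases before the start.
Slco1a1: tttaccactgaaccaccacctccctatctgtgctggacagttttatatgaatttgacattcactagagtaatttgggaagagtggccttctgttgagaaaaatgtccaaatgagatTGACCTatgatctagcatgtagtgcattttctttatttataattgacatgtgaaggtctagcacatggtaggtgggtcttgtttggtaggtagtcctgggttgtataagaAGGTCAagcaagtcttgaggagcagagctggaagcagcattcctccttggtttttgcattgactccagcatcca

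The other 3 sinusoidal carriers did not pass the age test. Slco1b2, a hepatic carrier of bile acids and statins, was the most abundant member at 516 to 815 (median 619.5) TPM in old and 514 to 805 (median 679) in young libraries, and its age difference of -0.04 had a 95% interval of -0.20 to 0.13 (adjusted p = 0.932). Slco1a4, a carrier of bile acids and cardiac glycosides such as digoxin, passed the rhythm test (peak-to-trough log2 difference 1.01, SE 0.241, adjusted p = 0.0115) with a fitted peak at ZT12.5. It did not pass the test for any variation over the 6 times (limma adjusted p = 0.112). The 4 libraries of ZT10 read 38.0 to 52.4 TPM and those of ZT2 12.4 to 27.8, with no overlap. These times were picked from the same values as the highest and lowest means, so the gap is no test. The highest single value, 71.3 TPM, was replicate 2 of old ZT18, far above its partner at 24.2. Slco2b1, which carries sulfated steroids, lay at 36.2 to 60.6 (median 42.4) TPM in old and 16.5 to 51.5 (median 41.4) in young, with an age difference of 0.23 (95% interval -0.07 to 0.53) and no rhythm call (adjusted p = 0.517).

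**Figure D3:**
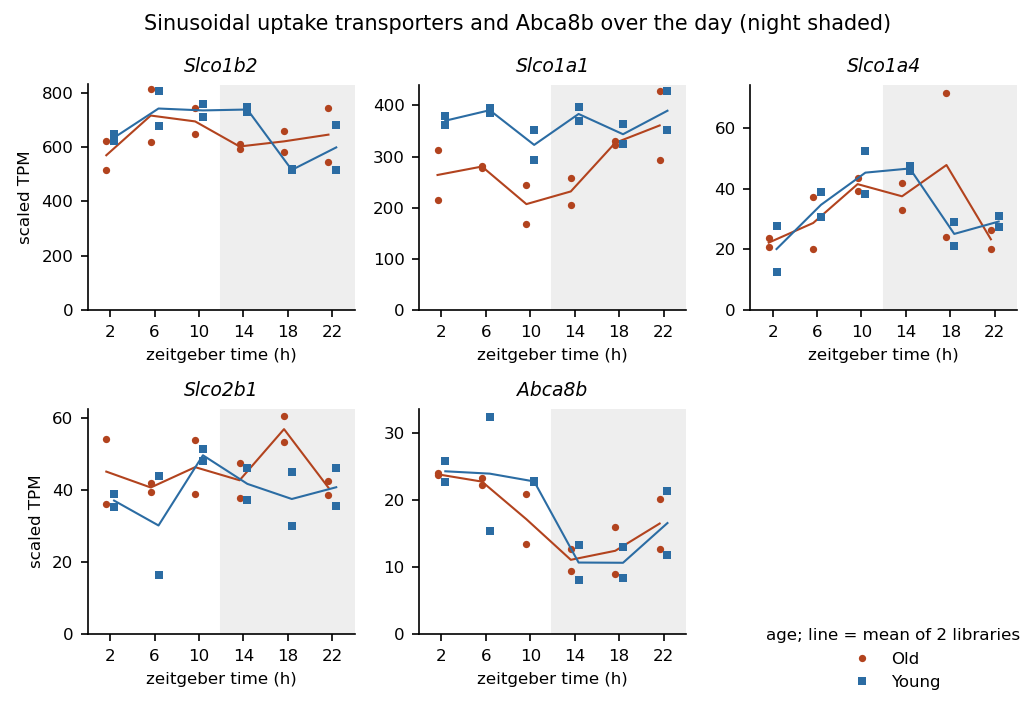
Scaled TPM (vertical axis) over zeitgeber time (horizontal axis, hours, night shaded) of the 4 sinusoidal uptake transporters and Abca8b, with old as circles and young as squares, each point 1 library and each line the mean of 2. Old Slco1a1 points lie below the young ones from ZT2 to ZT14, and Abca8b is at its lowest at ZT14 and ZT18 in both ages.

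The roles were described by counts, with no test between them. All 7 tested exporters of the canalicular membrane passed the rhythm test, against 6 of the other 30 tested members and 23.9% of all genes. Their peaks were spread over the day: Abcb11 at ZT2.51, Abcg8 at ZT7.24, Abcb4 at ZT8.10, Abcc2 at ZT8.26, Abcg5 at ZT9.34, Abcb1a at ZT12.0 and Abcg2 at ZT19.8. The fitted peak-to-trough differences ran from 0.66 (Abcg2) to 1.89 (Abcg8) on the log2 scale. The median was 0.36 in all genes tested and 0.72 in all genes that passed the rhythm test, so Abcg2 lay below the second. None passed the age test, and all 7 kept the rhythm call without the 2 libraries that stand apart. The number was 6 in 17 of the 24 fits that left out 1 library, and with quantile normalization, no filter or no trend (Abcc2 was lost in each), and 5 without ZT10.

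Abcb11 encodes the bile salt export pump, which drives bile salt secretion. In old livers it was at 270.4 and 307 TPM at ZT2, 208 and 237 at ZT6, 114 and 163 at ZT10, 73.5 and 102 at ZT14, 109.8 and 175 at ZT18 and 164 and 236 at ZT22. The young libraries read 237 and 271 TPM at ZT2, 153 and 233 at ZT6, 159 and 182 at ZT10, 63.1 and 116 at ZT14, 99.2 and 152 at ZT18 and 133 and 249.7 at ZT22. The 4 libraries of ZT2 all lay above the 4 of ZT14 (237 to 307 against 63.1 to 116), and old and young libraries overlapped at all 6 times. The rhythm on the mean of both ages was a 2.70-fold swing (peak-to-trough log2 difference 1.43, SE 0.198, adjusted p = 6.22e-05), with a fitted peak at ZT2.21 in old and ZT2.88 in young. Its age difference over the day was 0.07 with a 95% interval of -0.25 to 0.38.

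The window around the Abcb11 start (chr2:69342567-69342866, minus strand, RefSeq GRCm38.p6) is given because Abcb11 is a textbook target of the bile acid receptor FXR, a nuclear receptor. The capitals mark the 1 copy of AGGTCA, read on the other strand as TGACCT, 56 bases before the start.
Abcb11: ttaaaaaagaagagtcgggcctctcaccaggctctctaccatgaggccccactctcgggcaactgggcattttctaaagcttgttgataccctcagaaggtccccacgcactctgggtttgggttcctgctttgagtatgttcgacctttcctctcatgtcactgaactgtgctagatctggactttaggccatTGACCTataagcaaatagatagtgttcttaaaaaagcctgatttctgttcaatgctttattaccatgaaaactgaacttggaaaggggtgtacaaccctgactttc

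Abcg5 and Abcg8 encode the paired subunits of the sterol exporter that secretes cholesterol into bile, and both swung together. Old livers had Abcg5 at 28.0 and 29.1 TPM at ZT2, 44.5 and 46.3 at ZT6, 54.6 and 59.5 at ZT10, 42.6 and 41.9 at ZT14, 18.7 and 18.6 at ZT18 and 21.4 and 23.7 at ZT22. Young livers had it at 17.6 and 26.1 TPM at ZT2, 43.4 and 47.5 at ZT6, 77.0 and 68.0 at ZT10, 41.6 and 49.9 at ZT14, 15.3 and 18.8 at ZT18 and 19.8 and 25.7 at ZT22. All 4 libraries of ZT10 lay above those of every other time, and their mean was 3.63 times that of ZT18. Old livers had Abcg8 at 19.3 and 22.8 TPM at ZT2, 28.1 and 37.1 at ZT6, 29.7 and 36.3 at ZT10, 15.5 and 19.8 at ZT14, 9.90 and 11.5 at ZT18 and 14 and 17.5 at ZT22. Young livers had it at 15.0 and 17.7 TPM at ZT2, 28.3 and 34.6 at ZT6, 45.2 and 40.3 at ZT10, 13.0 and 19.7 at ZT14, 4.47 and 5.80 at ZT18 and 14.6 and 19.4 at ZT22. The mean of ZT10 was 4.79 times that of ZT18, whose 4 libraries were the lowest of the day. Abcg5 had the smallest p of any member in the rhythm test (peak-to-trough log2 difference 1.73, SE 0.158, adjusted p = 2.84e-07), and Abcg8 the widest swing (peak-to-trough log2 difference 1.89, SE 0.241, adjusted p = 2.4e-05). The Abcg8 level was a mean of 0.751 of the Abcg5 level at ZT2 and 0.704 at ZT6, 0.584 at ZT10, 0.386 at ZT14, 0.437 at ZT18 and 0.720 at ZT22 (n = 4 libraries per time, both ages). This mean was lowest at ZT14, but the libraries of ZT18 ranged widely (0.292 to 0.619). The lowest ratio of any young library was 0.292, at ZT18, and of any old library 0.3645, at ZT14. At ZT18, Abcg8 was at 9.90 and 11.5 TPM in old against 4.47 and 5.80 in young, the last of these being the library with acinar RNA, with an unadjusted p of 0.000645 that did not pass after adjustment over all genes (log2 difference 0.997, SE 0.234, adjusted p = 0.351).

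The 2 genes lie head to head on chromosome 17. In the files' coordinates Abcg5 (chr17:84658234-84683011, minus strand) and Abcg8 (chr17:84676302-84700333, plus strand) overlap, and since the labels name a strand-specific library but not how the counting used the strand, reads in the overlap may be shared. Their RefSeq starts (GRCm38.p6) are 110 bases apart, and the windows of 250 bases before to 50 after each start (chr17:84682962-84683261 and chr17:84682871-84683170) have 209 bases in common. They are shown because the pair moved together, with the 109 bases between the starts in capitals, each read along its own gene.
Abcg5: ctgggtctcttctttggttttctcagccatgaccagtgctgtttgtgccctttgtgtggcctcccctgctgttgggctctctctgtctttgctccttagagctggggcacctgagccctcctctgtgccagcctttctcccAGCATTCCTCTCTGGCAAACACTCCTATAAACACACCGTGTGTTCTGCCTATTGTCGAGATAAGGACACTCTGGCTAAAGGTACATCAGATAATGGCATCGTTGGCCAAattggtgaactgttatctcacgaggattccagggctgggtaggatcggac
Abcg8: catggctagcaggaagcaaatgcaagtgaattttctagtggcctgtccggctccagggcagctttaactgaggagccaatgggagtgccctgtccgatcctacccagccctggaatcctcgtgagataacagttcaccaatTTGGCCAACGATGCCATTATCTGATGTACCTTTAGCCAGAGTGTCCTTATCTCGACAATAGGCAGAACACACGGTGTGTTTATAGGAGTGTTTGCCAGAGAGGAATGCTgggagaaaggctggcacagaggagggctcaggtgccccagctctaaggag

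**Figure D4:**
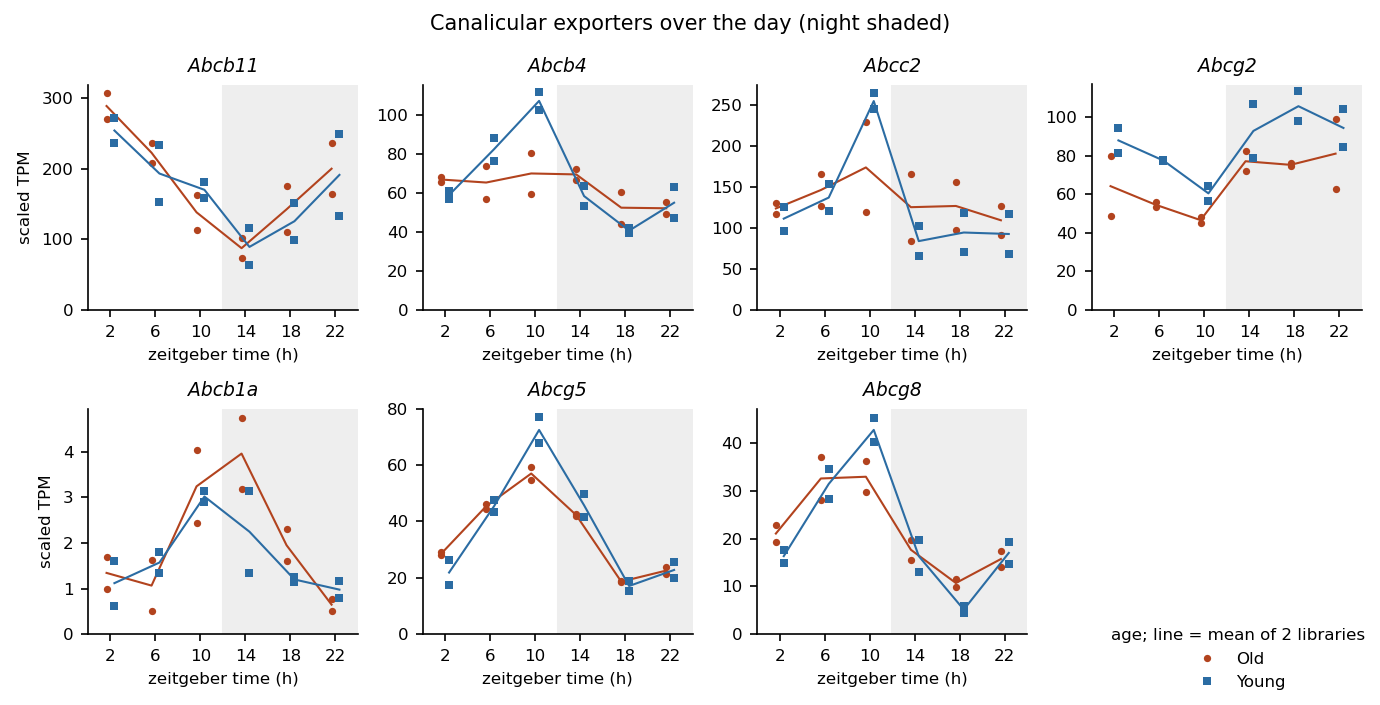
Scaled TPM (vertical axis) of the 7 tested canalicular exporters over zeitgeber time (horizontal axis, hours, night shaded), old as circles and young as squares, each point 1 library and each line the mean of 2. Abcg5 and Abcg8 are highest at ZT10 and lowest at ZT18, Abcb11 runs from high at ZT2 to low at ZT14, and Abcg2 is lowest at ZT10.

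Abcb4, the floppase that supplies phosphatidylcholine to bile, had 68.3 and 65.4 TPM at ZT2, 56.7 and 73.9 at ZT6, 59.2 and 80.6 at ZT10, 66.6 and 72.3 at ZT14, 44.2 and 60.6 at ZT18 and 49.0 and 55.2 at ZT22 in old livers. In young livers it was at 61.1 and 56.7 TPM at ZT2, 76.4 and 88.3 at ZT6, 112 and 102 at ZT10, 53.3 and 63.4 at ZT14, 39.4 and 41.9 at ZT18 and 47.1 and 62.8 at ZT22. The young libraries of ZT10 were the highest, above every old library, and those of ZT18 the lowest, so that old lay below young at ZT6 and ZT10 and above it at ZT2, ZT14 and ZT18. It passed the rhythm test on the mean of both ages (peak-to-trough log2 difference 0.78, SE 0.133, adjusted p = 0.000614) and in young alone (1.14, SE 0.188, adjusted p = 0.00118), whereas in old the swing was 0.42 (SE 0.188, adjusted p = 0.332). The difference of the rhythms had an unadjusted p of 0.0405, the smallest of any member, and an adjusted p of 0.9999. Abcc2, the exporter of bilirubin glucuronide and other conjugates, ranged over 84.9 to 229 (median 127) TPM in old and 66.0 to 265 (median 118) in young. Its rhythm passed only narrowly (peak-to-trough log2 difference 0.84, SE 0.250, adjusted p = 0.0454), and the call was lost in 17 of the 24 fits that left out 1 library. At ZT10 it stood at 119 and 229 TPM in old and 265 and 245 in young, its highest mean at either age.

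Abcg2, which exports urate, porphyrins and sulfated drugs, peaked late in the night, at ZT19.8, apart from the other canalicular genes. It ranged over 44.9 to 99.1 (median 67.4) TPM in old and 56.6 to 113 (median 82.9) in young, and all 4 libraries of ZT18 (74.5 to 113) lay above all 4 of ZT10 (44.9 to 64.3). Its fitted level was lower in old at 6 of 6 times, with means of 66.5 ± 16.8 TPM in old and 86.4 ± 17.2 in young (SD, n = 12 each), but the difference over the day narrowly missed the threshold (log2 difference -0.39, SE 0.0963, adjusted p = 0.0559, limma). A term for replicate number in the fit brought the difference past the threshold (limma adjusted p = 0.0262). Of the 24 fits that left out 1 library, it passed in 3, without replicate 1 of old ZT2 (-0.45), replicate 1 of old ZT22 (-0.44) or replicate 2 of young ZT14 (-0.43). It passed in 3 of 17 other alternatives: with the replicate term, with a term for the level of long genes, and without ZT22 (limma adjusted p = 0.0453). Over all alternatives the log2 difference was -0.45 to -0.28. Abcb1a, one of the mouse P-glycoproteins, was scarce, at 0.505 to 4.74 (median 1.66) TPM in old and 0.623 to 3.15 (median 1.34) in young. It was highest at ZT10 (2.44 to 4.04 over the 4 libraries) and lowest at ZT22 (0.513 to 1.16; peak-to-trough log2 difference 1.44, SE 0.252, adjusted p = 0.000823). Its level is uncertain, since 17.6% of the 50-base stretches in its annotated transcripts also occur in other genes, mostly its neighbour Abcb1b.

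Of the basolateral exporters, Abcc3, which returns bile acid and glucuronide conjugates to blood, and Abcc6, which is needed for ATP release from hepatocytes, were above the filter, and neither passed the age or rhythm test. Abcc3 was at 33.5 to 63.5 (median 47.2) TPM in old and 30.6 to 102 (median 52.9) in young. At ZT10 the old libraries had 33.5 and 63.5 TPM and the young ones 102 and 83.8. Abcc6 lay at 15.9 to 31.0 (median 21.8) TPM in old and 13.8 to 31.4 (median 24.3) in young (age difference 0.02, 95% interval -0.27 to 0.31). Abcc1, Abcc4 and Abcc5, the other basolateral genes, were below the filter.

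The lipid transporters of the A and G subfamilies gave 2 rhythm calls among 7 tested genes (28.6%, near the 23.9% of all genes) and no age call. Abca8b, whose human relative ABCA8 exports cholesterol, was at 23.96 and 23.6 TPM at ZT2, 22.2 and 23.3 at ZT6, 13.4 and 20.8 at ZT10, 9.44 and 12.7 at ZT14, 8.92 and 15.9 at ZT18 and 12.7 and 20.2 at ZT22 in old. In young it was at 22.7 and 25.8 TPM at ZT2, 15.4 and 32.4 at ZT6, 22.7 and 22.8 at ZT10, 8.04 and 13.3 at ZT14, 8.29 and 13.0 at ZT18 and 11.8 and 21.3 at ZT22. All 4 libraries of ZT2 (22.7 to 25.8) lay above all 4 of ZT14 (8.04 to 13.3), and the rhythm passed in old (adjusted p = 0.0359), in young (adjusted p = 0.0116) and on their mean (peak-to-trough log2 difference 1.23, SE 0.204, adjusted p = 0.000445). Abca6, its neighbour in a run of 5 Abca genes on chromosome 11 (109932190 to 110337716), was the most abundant of this group at 59.0 to 117 (median 80.8) TPM in old and 45.9 to 119 (median 72.3) in young, and passed the rhythm test with a smaller swing (peak-to-trough log2 difference 0.66, SE 0.174, adjusted p = 0.0234) and a peak at ZT8.62. The call for Abca6 was lost without any one of 4 libraries, replicates 1 and 2 of young ZT10, replicate 2 of old ZT10 and replicate 1 of young ZT22 (adjusted p up to 0.0570). Abca8a, the closest neighbour of Abca8b, was at 32.9 to 71.8 (median 46.8) TPM in old and 28.7 to 79.5 (median 60.6) in young and did not pass (0.50, SE 0.197, adjusted p = 0.159). Abca1, the exporter that loads cholesterol on to apolipoprotein A-I, was at 24.7 ± 7.62 TPM in old and 26.4 ± 8.19 in young (SD, n = 12 each), with an age difference of -0.09 whose 95% interval was -0.55 to 0.37. Abca3, Abca2 and Abcg1, a sterol exporter of macrophages, averaged 10.9, 8.59 and 2.998 TPM in old and 10.1, 7.75 and 2.40 in young and passed neither test.

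The start regions of Abca8b (chr11:109995796-109996095) and Abca8a (chr11:110095888-110096187, both minus strand, RefSeq GRCm38.p6) are set side by side because each holds 1 CACGTG, the E-box that the clock activators CLOCK and BMAL1 bind, while the rhythm test was passed by Abca8b and missed by Abca8a. No test compared the rhythms of the 2 genes. The E-box, in capitals, begins 18 bases after the Abca8b start and 136 bases before the Abca8a start.
Abca8b: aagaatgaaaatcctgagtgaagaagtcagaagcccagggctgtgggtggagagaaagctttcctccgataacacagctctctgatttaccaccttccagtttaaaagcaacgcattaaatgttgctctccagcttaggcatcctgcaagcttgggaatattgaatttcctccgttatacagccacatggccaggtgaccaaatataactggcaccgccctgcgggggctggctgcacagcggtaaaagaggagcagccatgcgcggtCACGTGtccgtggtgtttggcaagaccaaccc
Abca8a: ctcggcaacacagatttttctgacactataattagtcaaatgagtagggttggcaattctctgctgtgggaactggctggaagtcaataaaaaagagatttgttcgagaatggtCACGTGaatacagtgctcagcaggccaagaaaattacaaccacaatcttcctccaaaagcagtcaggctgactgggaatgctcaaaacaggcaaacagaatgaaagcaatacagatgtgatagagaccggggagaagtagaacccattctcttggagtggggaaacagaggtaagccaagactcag

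RefSeq gave a start region for 51 of the 65 genes. On either strand, CACGTG occurred in 7 of these 51 (13.7%), against 8.09% of the regions of 27025 genes, and among the rhythmic members in Abca8b and Abcf1. AGGTCA occurred in 8 of 51 (15.7%), against 18.1% of all regions, and in the rhythmic Abcb11, Abcc2 and Abcg2. The D-box TTANGTAA, bound by the clock output factor DBP and its relatives, was in 0 of 51, against 2.72% of all regions. These are counts of letters in a short window and say nothing of binding.

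In the D subfamily, 1 of 4 tested genes passed the rhythm test. Abcd2, a peroxisomal carrier of very long chain fatty acids, ranged over 2.85 to 13.8 (median 5.83) TPM in old and 2.101 to 15.0 (median 6.49) in young, with all 4 libraries of ZT10 (8.17 to 15.0) above all 4 of ZT18 (2.85 to 5.97; peak-to-trough log2 difference 1.29, SE 0.284, adjusted p = 0.00626). Its relative Abcd3, the abundant peroxisomal carrier of branched chain and bile acid precursors, was at 217 to 401 (median 282) TPM in old and 200.8 to 403 (median 272) in young. On the mean of both ages it had the smallest rhythm estimate of the 37 members (0.06, SE 0.143). The fitted swing of Abcd3 was 0.30 in old, peaking at ZT19.3, and 0.40 in young, peaking at ZT8.15 (SE 0.202 each), so the 2 nearly cancelled. Neither passed, nor did their difference (limma adjusted p = 0.9999). Abcd4, which acts in lysosomal export of cobalamin, was the tested member with the second largest positive age difference. It averaged 3.29 ± 0.618 TPM in old and 2.25 ± 0.753 in young (SD, n = 12 each) and was higher in old at 6 of 6 times in the fitted values, but did not pass (log2 difference 0.50, SE 0.171, adjusted p = 0.204). Without replicate 2 of young ZT22, it did (adjusted p = 0.0384).

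None of the 4 tested B subfamily transporters of mitochondria and lysosomes passed either test. Abcb10, which acts in mitochondrial haem synthesis, was at 15.8 ± 2.45 TPM in old and 14.9 ± 2.24 in young. Abcb8 had 13.8 ± 2.70 TPM in old and 14.7 ± 2.64 in young (SD, n = 12 each). The values of Abcb6, a porphyrin carrier, are uncertain, because 50% of the 50-base stretches in its transcripts also lie in those of the annotated gene Gm29253.

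Of the soluble E and F proteins, Abce1 and Abcf1 passed the rhythm test and none of 4 the age test. Abce1, which recycles ribosomes after termination, peaked at ZT18.4, with 42.9 to 54.2 TPM over the 4 libraries of ZT18 and 30.0 to 37.1 at ZT10 (peak-to-trough log2 difference 0.49, SE 0.111, adjusted p = 0.00800). Abcf1, which promotes translation initiation, peaked at ZT13.7 with 31.0 to 45.0 TPM at ZT14 and 21.4 to 24.9 at ZT6 (peak-to-trough log2 difference 0.45, SE 0.108, adjusted p = 0.0114). Both swings were small, and the high and low times, picked from these same values, did not overlap. The highest and lowest times were also apart in Abcf3, Abcf2, Abcb10 and Abcg3, which had no rhythm call. They overlapped in Abcb4, Abcc2 and Abca6, which had a call, so such a gap is no test here or in other members. Abcf3 and Abcf2 averaged 25.2 and 19.5 TPM in old and 24.5 and 19.3 in young, with no call. The highest Abcf1 value came from the old ZT14 library with little mitochondrial RNA.

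Outside these roles, Slco3a1 had the largest positive age difference of any tested member. Its level was low, 0.844 to 3.31 (median 1.85) TPM in old and 0.567 to 1.86 (median 1.10) in young, and the difference did not pass (log2 difference 0.56, SE 0.176, adjusted p = 0.155). Abcc9, a subunit of ATP-sensitive potassium channels of vascular cells, was at 5.62 ± 1.40 TPM in old and 4.20 ± 1.23 in young (SD, n = 12 each; log2 difference 0.38, SE 0.151, adjusted p = 0.295), and Slco2a1, the prostaglandin carrier, at 12.1 ± 3.25 TPM in old and 13.7 ± 4.60 in young (log2 difference -0.15, 95% interval -0.54 to 0.25). Slco1a5 and Abcg3 were scarce, at means of 1.41 and 2.19 TPM in old and 1.60 and 1.81 in young. In whole liver, a change in the number of cells of a type and a change in RNA per cell cannot be told apart. Markers of other cells did differ with age. Of the 5 plasma and B cell markers, 3 of the 4 tested were higher in old, with a summed level of 117 to 647 TPM in old and 12.9 to 60.4 TPM in young. Both tested neutrophil markers were higher in old, at a sum of 2.65 to 121 TPM against 2.28 to 22.6 TPM in young, with Ly6g at 0 throughout, while none of 6 sinusoidal endothelial markers and 1 of 6 macrophage markers passed. Their part in the levels of Slco3a1 and Abcc9 was not tested.

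**Figure D5:**
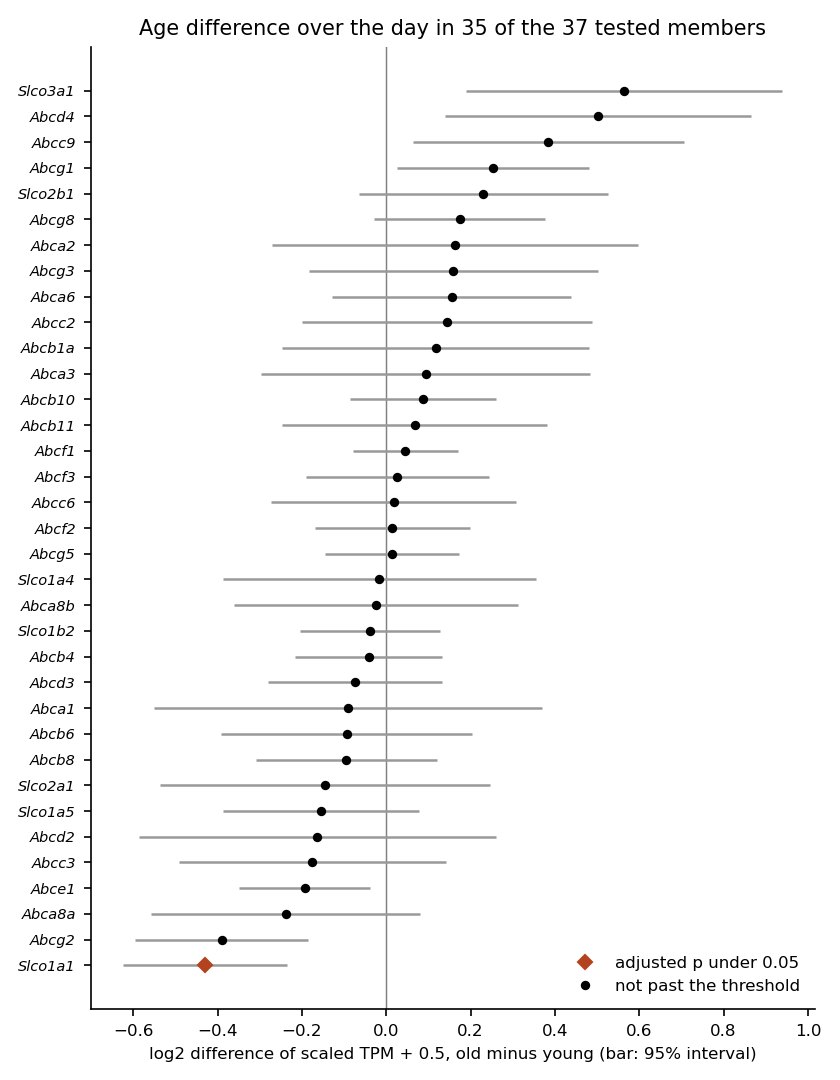
Age difference over the day, old minus young, of 35 of the 37 tested transporters on the log2(scaled TPM + 0.5) scale (points) with 95% intervals (bars), sorted by size. Slco1a1, at -0.43, is the single one past the threshold (diamond), with Abcg2 next at -0.39.

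The rhythms were then compared between ages. In old, 5 of 37 members passed the rhythm test (13.5%, against 8.96% of all genes), and in young also 5 (13.5%, against 10.7%). Abcg5, Abcg8, Abcb11 and Abca8b passed at both ages, Abcb1a in old and Abcb4 in young. By limma, 0 of 37 passed the test of a difference between the rhythms (0.0% of all genes passed), with 1 member, Abcb4, at an unadjusted p under 0.05 (1 of 37, against 429 of all 12261 genes). For 9 of the 13 rhythmic members the fitted swing was smaller in old, and the matching share among all rhythmic genes was not computed. Abcg8, for example, had 1.54 (SE 0.341) in old and 2.25 (SE 0.341) in young. Abcc2 had 0.492 in old and 1.198 in young (SE 0.354 each). Its age difference at ZT10 was -0.624, and -0.255 in the fit with a term for the level of long genes, described below. Swings were wider in old for Abcb11, Abcb1a, Abcf1 and Abcg2. Over all 37, 21 had the smaller fitted swing in old, as did 6823 of the 12261 genes tested, so the members' share was near that of all genes.

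At single times no member passed the age test in the main fit, which had no term for replicate number. By limma, 0 of 37 were called at ZT2, ZT6, ZT10, ZT14, ZT18 and ZT22, where 0.0%, 0.0%, 0.53%, 0.0408%, 0.0245% and 0.00816% of all genes were, in that order, and 3, 1, 5, 4, 1 and 2 members had an unadjusted p under 0.05. In percent these are 8.11, 2.70, 13.5, 10.8, 2.70 and 5.41 of the members, against 4.01, 4.04, 7.92, 7.86, 4.64 and 3.04 of all genes. The variation of the age difference over times passed in 0 of 37 (0.0163% of all genes), with 3, Abcg8, Abcb4 and Abcb6, at an unadjusted p under 0.05 (8.11%, against 3.60% of all genes). At ZT14 the unadjusted list was Abcb6 and Abcf1, higher in old, and Abce1 and Slco1a1, lower (5.41% of members each way, against 3.40% of all genes higher and 4.46% lower), and 0.0326% of all genes were called as higher after adjustment. ZT10 differed by sign from the other times: 30 of 37 members had a lower fitted level in old (median -0.29, log2), against 52.9% of all genes (median -0.02). At the other times 12 to 17 members were lower. Of those lower in old at ZT10, 0 were called (0.0816% of all genes were lower in old and called) and 4 had an unadjusted p under 0.05 (10.8%, against 3.30% of all genes), Abcc3 (-0.996, SE 0.364), Slco1a1 (-0.66, SE 0.223), Abcb4 (-0.63, SE 0.1999) and Abcd3 (-0.58, SE 0.237), with adjusted p-values of 0.277 to 0.498. Transcript length moved with this pattern. At ZT10, 71.8% of the 3060 other genes with long transcripts were lower in old (median -0.18), against 46.4% of 9092 shorter ones (median 0.03), and the level of long genes was high in both young ZT10 libraries (0.13 and 0.23) and apart in the old ones (-0.18 and 0.20). With that level as a term in the fit, an alternative added after seeing the data, 20 members were lower and 17 higher in old at ZT10 (median -0.09). The level was taken around each gene's mean over all libraries, not within groups. It therefore itself differed between the ages at ZT10 (mean 0.181 in young and 0.009 in old). A more even split was thus partly built in, and this fit cannot separate transcript length from age at ZT10. With the same term 19 members passed the rhythm test, including all 13 called without it, and 2 the age test, Slco1a1 (adjusted p = 0.00520) and Abcg2 (adjusted p = 0.0258). Calls rose over all genes too: 271 were higher and 210 lower in old with this term, against 140 and 61 without it. The test over the 6 times was passed by 3285 genes, against 1881. The rhythm calls over all genes with this term are not reported here. With the long-gene term Abcg8 passed at ZT18, higher in old (0.85, limma adjusted p = 0.00566). With a term for replicate number instead, Abcc3 passed at ZT10, lower in old (-0.996, limma adjusted p = 0.0366). Abcg8 passed at ZT18 in that fit too (0.997, limma adjusted p = 0.0172).

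Genes that work with these transporters were read from lists of other carriers and of regulators. Of 11 tested carriers, 1 was higher and 1 lower in old, against 1.14% and 0.498% of all genes. Slc22a7, an organic anion carrier, averaged 21.6 ± 5.65 TPM in old and 13.2 ± 4.38 in young (SD, n = 12 each; log2 difference 0.70, SE 0.148, limma adjusted p = 0.0209), and Slc22a30, a relative, 97.4 ± 23.5 in old and 124 ± 23 in young (-0.36, SE 0.0672, adjusted p = 0.00952). Rhythm was called for 5 of the 11: Slc22a5, the carnitine carrier (1.005, SE 0.135, peak ZT10.8), Slc22a30 (0.74, ZT22.4), Slc22a7 (0.76, ZT23.9), Slc29a1, a nucleoside carrier (0.56, ZT22.0) and Slc10a1, the sodium-dependent bile acid importer (0.47, ZT9.99). Of 14 nuclear receptors and factors that act on transporter genes, 0 passed the age test by limma and 7 the rhythm test. The rhythm test was passed by 23.9% of all genes, and no test compared either list with them. Nr0b2, the bile acid responsive repressor SHP, peaked at ZT2.1 (1.56, SE 0.172, adjusted p = 3.68e-06), next to the Abcb11 peak at ZT2.51. Nr1h4, the bile acid receptor FXR, peaked at ZT13.9 (0.57, SE 0.0902, adjusted p = 0.000294). The others were Nr1i3 (the receptor CAR, peak ZT14.5), Nr1i2 (PXR, 0.55, ZT14.6), Ppara (1.15, ZT10.2), Ahr (0.77, ZT9.01) and Hnf4a (0.54, ZT13.1). Whether any of these acts on the transporters was not tested. The ABC proteins Tap1 and Tap2, which load peptides for antigen presentation, passed neither test, and Cftr was below the filter.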

How the data were processed

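Whole-liver mRNA was purified with oligo-dT and read in single strand-specific runs of 50 bases, per the labels' protocols. Alignment used HISAT2 and quantification StringTie on the mouse build GRCm38, per the submitters' processing notes, and their versions, and whether quantification used the strand, are not given in the sources used here. For each library the authors deposited the coverage, FPKM and TPM of every gene. TPM, fixed by the authors to a sum of 1000000 per library, was the main value, the deposited FPKM served as an alternative, and the deposited coverage gave the depth in reads of 50 bases. No counts were used, so counting error could not be computed.

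Libraries were scaled to each other by the median ratio to the geometric mean, computed on the 13270 genes that no library listed at 0. The 12261 genes averaging 1 TPM or more entered limma 3.58.1 (R 4.3.3) as log2(scaled TPM + 0.5), with an intensity trend, a scale that understates changes of low genes. One model held 12 group means and gave the age difference (the mean over 6 times of old minus young), its value at each time, and F tests of time and of the age by time variation. The other held an intercept, cosine and sine of 24 h per age. Every p was adjusted by Benjamini-Hochberg over all genes tested, with a threshold of 0.05. A rhythm's size is the log2 difference between fitted peak and trough, and its fold is the same on the linear scale. Other steps used Python 3.11.15 with pandas 2.3.3, numpy 2.4.6 and matplotlib 3.10.9.

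The members and lists were chosen with earlier results of these data known. Genes named are members that passed any test, the 5 with the largest age difference and the 5 with the largest rhythm, the sinusoidal, canalicular and basolateral lists, the 3 most abundant of every other role, and genes of the related lists that passed. The other members were named after their values were seen. Related lists covered other carriers, nuclear receptors and factors, and 3 ABC proteins outside the name rule, and marker lists covered hepatocytes, bile duct, macrophages, sinusoidal endothelium, stellate cells, plasma and B cells, neutrophils, erythroid, pancreatic acinar and T and NK cells. Sequences are from RefSeq, and protein sequences were not used here. The results of 2 tested members are not reported here by name, although the counts include them. Shared sequence was counted as 50-base stretches of GENCODE M21 transcripts. In simulated data with 12261 genes and 50 changed genes per size, the fit recovered 48%, 88%, 96% and 96% of age differences of 0.5, 1, 1.5 and 2 log2 units, and 26%, 64%, 86% and 96% of rhythms of the same sizes. The simulated noise was independent between genes and libraries, and far fewer genes had a rhythm than the 2935 called here. These rates are therefore not detection rates for the real libraries. Alternatives changed the scaling, pseudocount, filter, trend, libraries, times and replicate block. A term for the level of long genes was added after seeing the data.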

Additional observations from a re-analysis of the deposited data

How the results depend on the processing

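Rhythm calls of Abcg5, Abcg8, Abcb11, Abca8b, Abcb4 and Abcb1a held in every alternative in which they were tested. With 1 library left out, members lower in old numbered 0 to 2 and members higher 0 to 1, rhythm calls 11 to 15, calls over the 6 times 7 to 12, rhythm calls in old 4 to 6 and in young 4 to 10 (10 without replicate 2 of young ZT22), and the Slco1a1 difference was -0.47 to -0.38. That difference lost its call without ZT2 (-0.41), ZT6 (-0.42), ZT10 (-0.38) or ZT14 (-0.37), leaving 0 members lower in old, and without ZT22 there were 2. Without ZT10, 8 members passed the rhythm test, 6 the test over times and 2 the rhythm test in old. Without ZT14 the last numbers were 6 and 3. Fewer samples were fitted there, but without ZT22, with as few samples, the 3 numbers were 13, 9 and 4. Abcd2 and Abcg2 lost the rhythm call without ZT10, Abcf1 without ZT10 or ZT14, Slco1a4 without ZT2, ZT10 or ZT14, and Abce1 without ZT18 and in the unscaled TPM. Abca6 lost it without ZT2, ZT6, ZT10 or ZT18, and Abcc2 with quantile normalization, no filter or no trend and without any time but ZT14.

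The main fit had no term for replicate number, although same-numbered libraries tended to deviate together. Of 66 pairs of groups, 52 had deviations that correlated above 0.1 (lowest -0.16, median 0.19), and 11 of 12 groups had a mean correlation above 0 with the others. No label ties the number to one of the 2 collection days. The replicate block gave 2 members lower in old over the day (Slco1a1 and Abcg2, the second with limma adjusted p = 0.0262), 17 calls over the 6 times, 9 rhythm calls in old and 12 in young, with 1 member lower at ZT10 (Abcc3, limma log2 difference -0.996, limma adjusted p = 0.0366) and 1 higher at ZT18 (Abcg8, 0.997, limma adjusted p = 0.0172). The term for the level of long genes gave 2, 16, 12 and 11 in the same order, and 1 higher at ZT18. The matching rhythm calls over all genes in old and in young are not reported here.

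Over the whole set of genes, 140 passed as higher in old and 61 as lower. The number higher was 225 in unscaled TPM, 222 in FPKM, 68 with the filter at 5 TPM, 91 without ZT6, 70 without ZT10, 220 with the replicate block and 271 with the long-gene term. The number lower was 38 in unscaled TPM, 38 without ZT2, 133 with the block and 210 with the long-gene term. Rhythm calls over all genes (2935) were 1941 without ZT6 and 1727 without ZT10, and calls over the times (1881) were 1251 without ZT10, 2905 with the block and 3285 with the long-gene term. The cause of these shifts was not tested.

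With 2 libraries per group, the 0 member calls at single times do not show that values were alike. Depth in reads is known for libraries but not per gene, and counting error is not included. With the filter at 5 TPM, 31 members were tested.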

Other observations

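Several members lie side by side in the genome, and neighbours had very different levels. On chromosome 6, a run of 6 Slco genes (141524386 to 142322981, GRCm38) held Slco1b2, the most abundant member, and Slco1a1 and Slco1a4, while Slco1a5 averaged 1.41 TPM in old and 1.60 in young, and Slco1a6 and Slco1c1 were listed at 0 in all 24 libraries. On chromosome 11, Abca6 and Abca8a were abundant, whereas Abca9 averaged 0.771 TPM in old and 0.780 in young. On chromosome 5, Abcb4 stood at 62.7 TPM in old and 67.0 in young beside Abcb1a at 2.03 TPM in old and 1.69 in young, and Abcb1b at 0.717 in old and 0.645 in young. The fitted peak of Abcb4 was ZT8.10 and that of Abcb1a ZT12.0.

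Replicate number went with transcript length over the whole table. Replicate 2 was higher than replicate 1 in at least 11 of the 12 groups for 11 of the 37 tested members (29.7%), among them Abcb11, Abcb10, Abcc2 and Abcd3, and for 8.49% of all genes, while replicate 1 was higher that often for 0 members and 7.71% of all genes. The median longest transcript was 6476 bases in those 11 members and 3863.5 in the other tested members. It was 5428 bases in all genes higher in replicate 2 and 1251 in those higher in replicate 1. The labels give no meaning to the number, and the cause was not tested.

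Of the marker lists not given above, bile duct markers summed to 29.7 to 77.1 TPM in old and 31.8 to 71.9 in young, with 1 of 2 tested higher in old. None of 5 stellate cell, 3 erythroid, 5 acinar and 1 T and NK cell markers tested passed the age test by limma. Macrophage markers summed to 212 to 641 TPM in old and 211 to 288 in young.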
